A study of Mus musculus with 16 samples.

Results

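The regions described here carried an ATAC-seq peak in double-negative (DN) and in double-positive (DP) thymocytes and none in either mature single-positive stage. They were chosen by the peak calls alone. The peaks of the 4 stages were merged wherever they shared at least 1 bp, which gave 185978 merged regions on chromosomes 1 to 19, and 10401 of them (5.59%) held a DN peak and a DP peak but no peak of CD4 single-positive (SP4) or CD8 single-positive (SP8) cells. They are called DN-DP regions below. ATAC-seq marks open chromatin through the insertion of a transposase into accessible DNA. The study sorted the 4 stages from the thymus of wild type C57BL/6J mice of 9 weeks, with 16 libraries in all, and by the labels the same 4 mice gave all 4 stages. DN cells lacked CD4, CD8, CD3 and a panel of markers of other lineages, DP cells carried CD4 and CD8, and SP4 and SP8 cells carried CD3 and only 1 of the 2 coreceptors. Reads of the 4 mice were pooled before peaks were called, so each stage has 1 list, no value has an error between mice, and the differences given here compare lists rather than animals. A stage without a peak is a stage at which none was called at a 5% false discovery rate, and signal under that threshold may remain.

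Thymocytes at the DN stage rearrange the T cell receptor beta gene and then test it as part of the pre-T cell receptor. Cells that pass divide, become DP and rearrange the alpha gene, and only those whose receptor is positively selected go on to the SP stages. E proteins, basic helix-loop-helix factors such as E2A (Tcf3) and HEB (Tcf12), bind the E-box sequence CANNTG and act at the DN and DP stages. Id proteins hold them off DNA, and receptor signalling raises Id3. RUNX factors, GATA3, TCF1 and LEF1 act throughout thymocyte development.

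The 8 DN-DP regions that stood highest at both stages are shown first. All 8 hold CAGCTG or CAGGTG within 50 bp of their summit, the position of the most insertions. Among all DN-DP regions 48.1% do, and among all merged regions 24.7%. In the tertile of DN-DP regions that stood highest at both stages the share was 57.2%. Each window reaches 50 bp to either side of the summit of the higher peak and comes from the mm10 (GRCm38) sequence of RefSeq. Capitals mark CAGCTG and CAGGTG, the latter also as its reverse complement CACCTG. RUNX matches (TGTGGT on either strand) would be in capitals too, and none of these windows has one. A match is a description of the letters, not proof of a bound site. Each window is named by the protein-coding gene with the nearest transcription start site (TSS).
Egln1, chr8:124970472-124970572, plus strand: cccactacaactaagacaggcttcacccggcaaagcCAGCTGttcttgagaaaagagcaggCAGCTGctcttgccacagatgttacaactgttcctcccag
Ap5m1, chr14:48926018-48926118, plus strand: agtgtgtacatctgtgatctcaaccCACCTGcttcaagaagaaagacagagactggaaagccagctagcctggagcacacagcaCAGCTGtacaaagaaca
Derl1, chr15:57809967-57810067, plus strand: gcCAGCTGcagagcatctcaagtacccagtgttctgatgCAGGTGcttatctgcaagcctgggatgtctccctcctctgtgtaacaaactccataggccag
Mboat1, chr13:30064397-30064497, plus strand: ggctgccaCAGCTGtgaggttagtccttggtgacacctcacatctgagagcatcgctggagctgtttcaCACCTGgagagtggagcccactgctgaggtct
Abra, chr15:42100790-42100890, plus strand: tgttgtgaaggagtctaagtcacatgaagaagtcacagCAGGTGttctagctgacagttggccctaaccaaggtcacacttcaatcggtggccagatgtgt
Cnnm1, chr19:43420636-43420736, plus strand: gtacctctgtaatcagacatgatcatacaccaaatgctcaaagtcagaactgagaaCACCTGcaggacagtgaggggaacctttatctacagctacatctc
Msto1, chr3:88929629-88929729, plus strand: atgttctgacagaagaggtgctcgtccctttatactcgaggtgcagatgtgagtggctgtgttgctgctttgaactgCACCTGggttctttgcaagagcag
Cul1, chr6:47395631-47395731, plus strand: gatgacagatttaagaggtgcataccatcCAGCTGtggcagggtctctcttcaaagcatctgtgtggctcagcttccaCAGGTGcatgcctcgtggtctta

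The highest region had a fold enrichment over local background of 25.1 at DN and 25.3 at DP, which put it above 97.9% of the peaks in each of the 2 lists. It spanned chr8:124970294-124970748, at the promoter of a transcript that is not protein-coding, 21198 bp upstream of the TSS of Egln1, an oxygen-sensing prolyl hydroxylase. The region near Ap5m1, which encodes an adaptor complex subunit, had 31.7 at DN and 23.6 at DP. It was the most isolated of the 8, since the nearest SP peak lay 139420 bp away. The region nearest the TSS of Derl1 lay inside Zhx2, a zinc finger and homeobox gene, with 24.0 at DN and 21.5 at DP. Near Mboat1, a lysophospholipid acyltransferase gene, the values were 22.6 and 21.2. The region closest to Abra, a muscle gene for an actin-binding protein, had 23.9 and 21.2. Near Cnnm1, of the CNNM family of metal transport mediators, they put it above 95.7% and 94.2% of the peaks. The region nearest Msto1 lay inside Dap3, a mitochondrial ribosome gene, and was higher at DP (25.1) than at DN (19.6). The region closest to Cul1, the scaffold of SCF ubiquitin ligases, had 18.8 and 19.4, and an SP peak was called 140 bp from its edge. 4 of the 8 windows held both CAGCTG and CAGGTG, while 11.1% of all DN-DP windows held 2 or more E-boxes of either kind. None of the 8 nearest genes is in the lists of thymocyte genes described below, and nearness does not link a region to a gene.

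The highest DN-DP region near Rag1, Dntt, Ptcra and Cd4 is shown as well, because these genes belong to the stages at which the regions were called. Rag2 shares the Rag1 region.
Rag1, chr2:101621032-101621132, plus strand: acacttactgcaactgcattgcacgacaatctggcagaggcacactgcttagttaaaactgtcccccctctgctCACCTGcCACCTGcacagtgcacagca
Dntt, chr19:41079711-41079811, plus strand: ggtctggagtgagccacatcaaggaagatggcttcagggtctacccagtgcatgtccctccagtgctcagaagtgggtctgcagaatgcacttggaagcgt
Ptcra, chr17:46768067-46768167, plus strand: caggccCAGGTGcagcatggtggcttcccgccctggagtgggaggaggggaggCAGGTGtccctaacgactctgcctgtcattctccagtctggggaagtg
Cd4, chr6:124879516-124879616, plus strand: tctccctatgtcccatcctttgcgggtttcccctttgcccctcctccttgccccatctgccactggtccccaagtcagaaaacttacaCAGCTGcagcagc

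These regions were of lower height than the first 8, with that of Cd4 the closest to them. Rag1 and Rag2 encode the recombinase that cuts the receptor genes. Their shared region, chr2:101620984-101621171, lay 3636 bp upstream of the Rag2 TSS and at a promoter of B230118H07Rik. It had a fold enrichment of 4.00 at DN and 4.03 at DP, percentiles of 27.9 and 29.8. An SP peak was called 490 bp from its edge. Its window holds CACCTG at 2 places, separated by a single base. Ptcra encodes the alpha chain of the pre-T cell receptor. Its region chr17:46768014-46768238, 4405 bp upstream of the TSS, had 5.04 at DN and 3.77 at DP, and its window holds CAGGTG at 2 places. The Cd4 region overlapped an exon of the coreceptor gene 8655 bp downstream of its TSS. It had 18.5 at DN and 18 at DP, percentiles of 93.0 and 92.1. Dntt encodes terminal deoxynucleotidyl transferase, which adds bases at the joints of receptor genes. The highest of its 7 regions, 50486 bp downstream of the TSS, had 5.54 at DN and 5.15 at DP, and its window has neither E-box. The nearest SP peak lay 3167 bp from the Ptcra region, 5184 bp from the Cd4 region and 6955 bp from this Dntt region.

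DN-DP regions were a minority of the regions called at both early stages. Of 83779 merged regions with a DN and a DP peak, 63369 (75.6%) also had peaks at SP4 and SP8, 5837 (6.97%) at SP4 only of the mature stages and 4172 (4.98%) at SP8 only, which leaves the 10401 (12.4%) DN-DP regions. They made up 7.39% of the 140829 regions called at DN and 10.4% of the 100254 called at DP. They covered 2846395 bp, 4.72% of the merged length, with a median width of 232 bp (quartiles 174 and 335 bp). Their share of the merged regions ran from 4.87% on chromosome 13 to 6.22% on chromosome 15.

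The heights, which belong to the calls that chose the members, were low to middling, and their percentiles leaned to DN. The median fold enrichment was 4.92 at DN (quartiles 3.77 and 7.34, highest 36.8), where all DN peaks had a median of 5.56. At DP the median was 3.98 (quartiles 3.40 and 4.96, highest 27.8), against 5.45 over all DP peaks. Ranked within each list (150139 DN and 107110 DP peaks), the median member stood at percentile 42.7 at DN and 27.0 at DP. The lists differ in length, so the same percentile is a different rank in each. Regions called at all 4 stages were also higher at DN (73.5 and 68.2). DN-only regions stood at 30.2 in the DN list and DP-only regions at 19.3 in the DP list. How much of the lean to DN comes from list length was not tested. The DN percentile exceeded the DP percentile in 6998 members (67.3%), and the DN peak was the wider one in 7257 (69.8%). Only 183 members (1.76%) were above percentile 75 at both stages, and 1936 (18.6%) were below percentile 25 at both. The DN and DP summits lay a median of 23.0 bp apart, and within 50 bp of each other in 7759 members (74.6%).

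**Figure D1:**
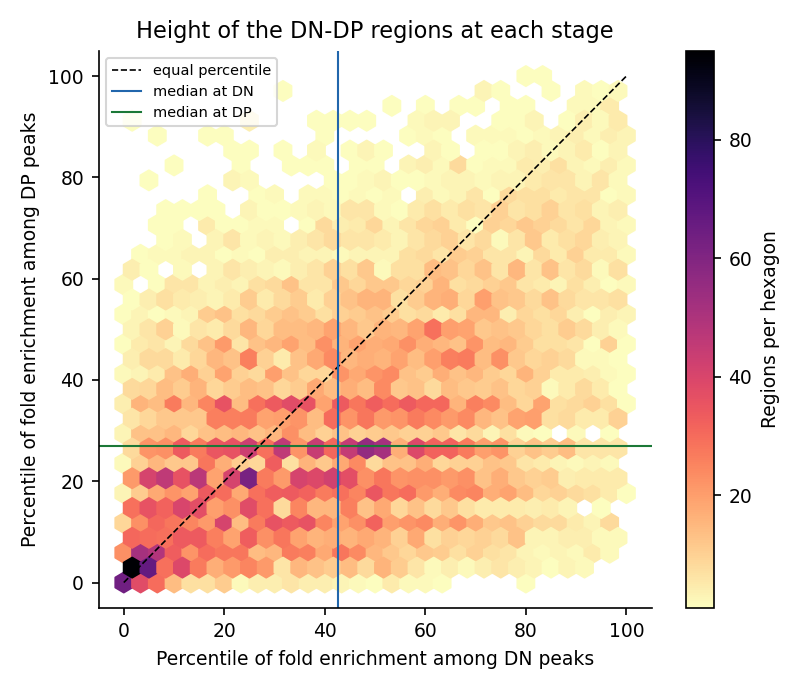
Percentile of fold enrichment of the 10401 DN-DP regions among all DN peaks (x axis) and all DP peaks (y axis), with colour giving the regions per hexagon. Most regions lie below the dashed line of equal percentile, and the medians (solid lines) are 42.7 at DN and 27.0 at DP.

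Both calls were at a q-value of at most 0.001 in 9717 members (93.4%). Just inside the threshold, chr4:136861522-136861816 had a −log10 q of 77.3 at DN and 1.36 at DP, chr12:30884618-30884810 had 9.27 and 1.36, and chr13:34055004-34055226 had 6.58 and 1.36. Just outside, chr10:79789672-79789886 was left out for an SP4 peak with a −log10 q of 1.35, and chr12:100326366-100326730 and chr16:94674486-94674717 for SP4 peaks at 1.44. Such near misses were few, since 383 of the 10009 regions called at DN, DP and 1 SP stage (3.83%) had an SP q-value above 0.001.

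DN-DP regions were often close to chromatin called at the mature stages. The nearest SP4 or SP8 peak lay a median of 2283 bp from the edge of a member (quartiles 612 and 6347 bp). It was within 500 bp for 2298 members (22.1%), compared with 15.9% of DN-only and 26.2% of DP-only regions, and within 10000 bp for 8796 (84.6%). In the order of merged regions 8650 members (83.2%) had no other member beside them and 1751 (16.8%) lay in runs. There were 730 runs of 2 consecutive members, 85 of 3 and 9 of 4. The 5 most compact runs of 4 lay in Agtrap, a gene for a protein that binds the angiotensin receptor (2808 bp), in Fmnl1, a formin gene of blood cells (3751 bp), beside Cyth4 (4767 bp), in Ptprn2 (5774 bp) and in the collagen gene Col27a1 (6554 bp).

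In sequence, the DN-DP regions stood apart by their E-boxes. CAGCTG was found within 50 bp of the summit in 22.9% of them (95% Wilson interval 22.1 to 23.7%). DN-only regions had it in 15.9%, DP-only regions in 12.3%, regions called at SP4 and SP8 only in 3.83%, and all merged regions in 11.8%. CAGGTG was found in 31.3% (30.4 to 32.2%) of the DN-DP regions, against 19.3%, 18.9% and 6.41% in those 3 classes and 14.8% in all merged regions. The differences for CAGCTG were 6.92 percentage points against DN-only (5.39 to 8.49), 10.5 against DP-only (8.71 to 12.4) and 19 against SP4-SP8 regions (17.4 to 20.6). For CAGGTG they were 12.0 (10.3 to 13.8), 12.4 (10.3 to 14.5) and 24.9 (23.0 to 26.8). All of these differences had the same direction on each of the 19 chromosomes. The intervals are Newcombe intervals widened over 90 comparisons (30 motifs and 3 classes). They treat regions as independent and cover counting error only, and a motif was called where its interval left out 0 and at least 15 of the 19 chromosomes went the same way.

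At least 1 of the 2 E-boxes was present in 5004 of the 10401 DN-DP windows (48.1%, 47.2 to 49.1%) and in 24.7% of all merged regions. Across all 15 combinations of stages the DN-DP regions had the highest share. The next were regions called at DN, DP and SP4 with 33.2% (32.0 to 34.4%), DN-only regions with 32.5% (32.1 to 33.0%) and regions called at DN, DP and SP8 with 31.9% (30.5 to 33.4%), whose intervals overlap one another. DP-only regions followed with 29.3% and regions open at all 4 stages with 22.9%, and the lowest share was that of SP4-SP8 regions with 10.1% (9.40 to 10.8%). Windows with 2 or more E-boxes made up 11.1% of the DN-DP windows, 5.32% of the DN-only, 3.99% of the DP-only and 0.493% of the SP4-SP8 windows.

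**Figure D2:**
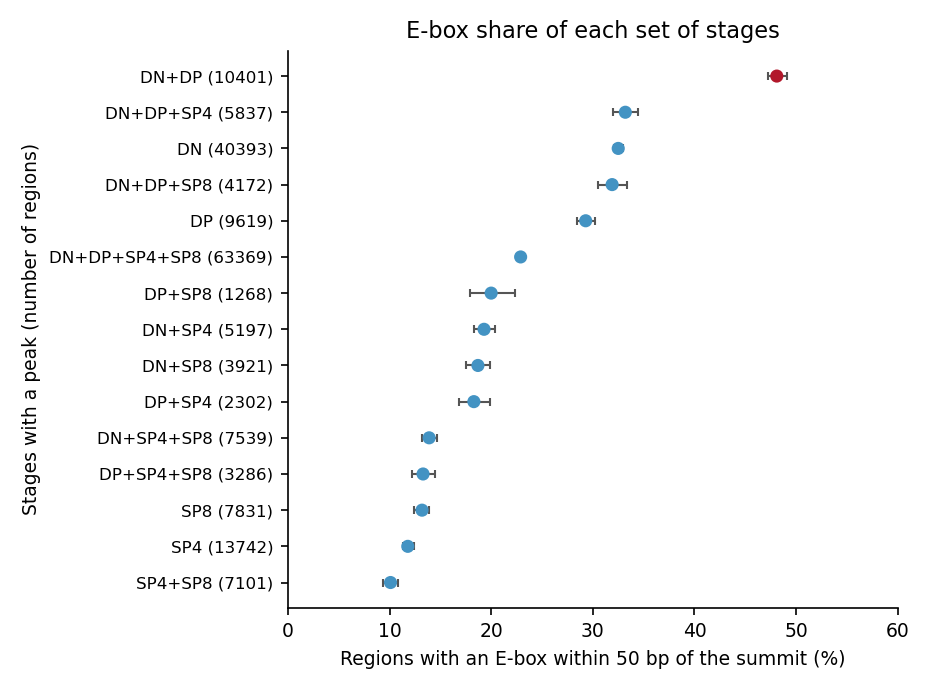
Share of merged regions with CAGCTG or CAGGTG within 50 bp of the summit (x axis, %) for each of the 15 sets of stages with a peak (y axis, number of regions in parentheses); bars are 95% Wilson intervals. The DN-DP regions (red) stand at 48.1% and the next set at 33.2%.

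The matches were centred on the summit. In the DN-DP regions there were 7.37 E-boxes per 100 regions in the 10 bp just downstream of the summit, and 4.36 in DN-only, 3.71 in DP-only and 1.07 in SP4-SP8 regions. In windows of the same total length 200 to 250 bp from the summit, CAGCTG fell to 6.36% and CAGGTG to 8.44% of the DN-DP regions. There the difference for CAGCTG against DP-only (0.668 points) and those for CAGGTG against DN-only and DP-only (0.683 and 0.343 points) were no longer called. The difference for CAGCTG against DN-only regions was still called (0.958 points, 0.0827 to 1.91, 15 of 19 chromosomes). SP4-SP8 regions held CAGCTG in 4.28% and CAGGTG in 6.59% of these flank windows. Of the 10 possible CANNTG cores (reverse complements counted together, 30 comparisons), 3 (30%) were higher than in all 3 classes. These were both of the above and, by a smaller margin, CAGATG, at 15.6% in the DN-DP regions and 13.4%, 11.4% and 7.49% in the others. The differences for CAGATG were 2.17 points against DN-only (0.960 to 3.44), 4.17 against DP-only (2.66 to 5.68) and 8.07 against SP4-SP8 regions (6.57 to 9.55). The CACGTG core, bound by MYC, was at 2.62%, and CATATG at 1.62%. The search over all cores was made after the first E-box results were known.

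**Figure D3:**
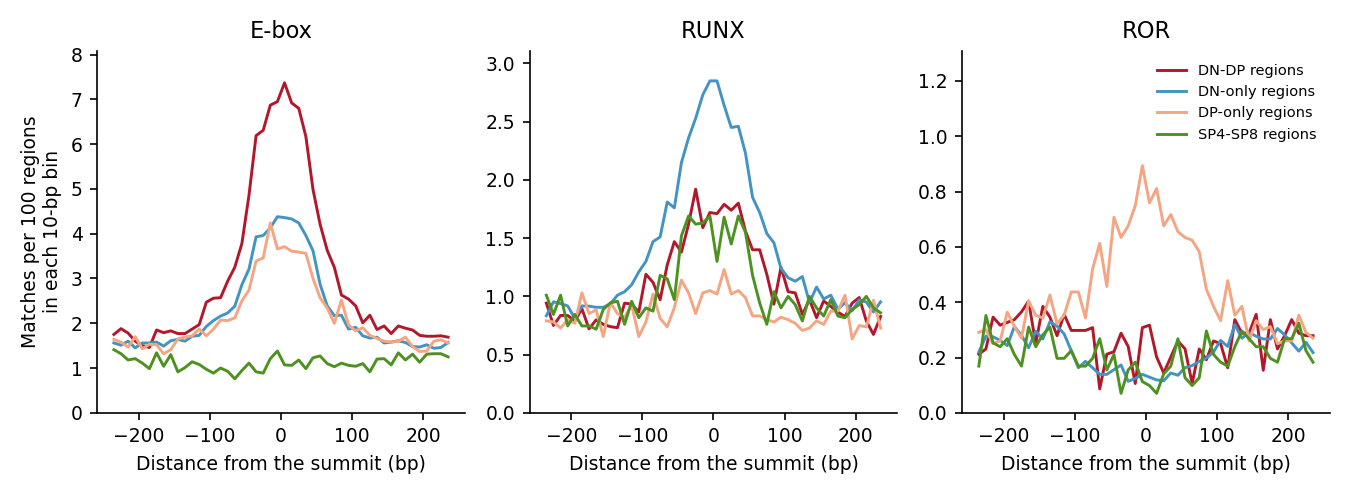
Matches per 100 regions in each 10-bp bin (y axis) by distance from the summit in bp (x axis) for the E-boxes CAGCTG and CAGGTG, RUNX and ROR, in DN-DP, DN-only, DP-only and SP4-SP8 regions. E-boxes peak at the summit of the DN-DP regions (7.37 in the central bin), RUNX peaks highest in DN-only regions and ROR in DP-only regions.

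The E-box differences were still called where other properties were held alike. The windows of the DN-DP regions had a median GC content of 54.5%, against 52.5%, 53.5% and 48.5% in the DN-only, DP-only and SP4-SP8 regions. Within 10 strata of GC content, the difference for CAGGTG was 11.2 points against DN-only, 12.1 against DP-only and 23.6 against SP4-SP8 regions. Within 10 strata of peak height it was 10.5, 10.0 and 24.3 points. In windows without any repeat-masked base, which were 64.9% of the DN-DP windows, 47.8% held an E-box, and 32.9%, 30% and 10.7% of the corresponding windows of the 3 classes did.

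Among the 30 motifs searched, CAGCTG and CAGGTG were the 2 that were called in the same direction against all 3 classes, and none was lower against all 3. Against DN-only regions 4 motifs (13.3%) were higher, the 2 E-boxes, ETS and ROR, and 8 (26.7%) were lower. Against DP-only regions 7 (23.3%) were higher and 1 (3.33%), ROR, was lower. Against SP4-SP8 regions 6 (20%) were higher and 11 (36.7%) were lower. HNF1, a factor of the liver, was searched as a control, but its sequence matched 0 of the 10401 windows (which allows a share of up to 0.0288%) and 0 of all 185978, so it controls for nothing.

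For RUNX, ROR and IKZF the DN-DP regions lay between DN-only and DP-only regions. RUNX (TGTGGT) was found in 15.1% of them, 6.48 points fewer than in DN-only regions (21.5%, interval −7.85 to −5.05) and 5.68 points more than in DP-only regions (9.39%, 4.09 to 7.27). Against SP4-SP8 regions (14.4%) the difference of 0.631 points (−1.27 to 2.49) was not called. It was 4.27 points (2.15 to 6.39) and called within strata of GC content. ROR (TAGGTCA or TGGGTCA), the sequence of the ROR family of nuclear receptors, was found in 2.17%, less often than in DP-only regions (6.68%, difference −4.51, −5.54 to −3.52) and more often than in DN-only regions (1.26%, difference 0.918, 0.430 to 1.5). IKZF (TGGGAA), of the Ikaros family, was at 7.18%, lower than in DN-only regions (9.51%) and higher than in DP-only (5.73%) and SP4-SP8 regions (4.11%). In the flank windows of the DN-DP regions RUNX was at 6.92%, ROR at 2.34% and IKZF at 9.71%. RUNX was thus more frequent at the summit than in the flanks, while ROR and IKZF were not. ETS (AGGAAG or CGGAAG) was present in 29.6%, above the 26.3% of DN-only and the 27.0% of DP-only regions. The ETS difference against SP4-SP8 regions (27.8%) was not called. All merged regions held ETS in 29.8%, RUNX in 15.9%, ROR in 1.85% and IKZF in 6.75%, so the ETS share of the DN-DP regions was near that of all regions. An E-box and a RUNX match shared a window in 763 DN-DP regions (7.34%, 6.85 to 7.85%), compared with 6.83%, 2.72% and 1.35% in the 3 classes. All merged regions had both in 3.99%. Whether the 2 motifs met more often than their single shares would give was not tested.

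AGATAA, a sequence of the zinc finger factor GATA3 and its relatives, was found in 2.36% of the DN-DP regions and was lower than in DN-only (3.51%) and SP4-SP8 regions (4.38%). Neither difference was called within GC strata, at −0.452 and −0.299 points. The flank windows of the DN-DP regions held AGATAA in 4.44%, more often than the windows at the summit. TCF7/LEF1 (CTTTGAA or CTTTGAT) was at 3.71%, close to DN-only (3.38%) and DP-only regions (3.76%) and lower than in SP4-SP8 regions (7.32%). That difference was not called within GC strata either (−0.750 points), while the one against DN-only regions was (0.980 points, 0.266 to 1.69). CTCF, the factor of chromatin loops, matched 0.461% of the DN-DP regions and 0.745%, 0.239% and 0.789% of the classes, with no difference called. It was called lower under 2 alternatives, against SP4-SP8 regions with equal numbers of peaks per list (−0.843 points, −1.35 to −0.355) and against DN-only regions with the DP summit (−0.322 points, −0.558 to −0.00857). In all merged regions AGATAA was at 3.40%, TCF7/LEF1 at 4.25% and CTCF at 1.31%. All sequences were searched on both strands without mismatch.

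The DN-DP regions were not uniform in sequence. They were cut into tertiles by the DN percentile minus the DP percentile, and again by the lower of their 2 percentiles, with Newcombe intervals widened over 66 comparisons. These splits were made after the class results were known, and the first compares percentiles of lists of unequal length. From the tertile that leaned to DP to the one that leaned to DN, RUNX rose from 11.3% through 14.0% to 19.9% (difference 8.62 points, 5.71 to 11.5, 19 of 19 chromosomes). IKZF rose from 5.60% to 9.17% and RBPJ (GTGGGAA), the DNA-binding partner of Notch, from 1.64% to 3.06%. The RBPJ sequence contains that of IKZF. ROR fell from 3.58% to 1.27% (difference −2.31 points, −3.63 to −1.08) and TCF7/LEF1 from 4.50% to 2.88% (−1.62 points, −3.18 to −0.0825). Of the 30 motifs these were the 3 (10%) that rose and the 2 (6.67%) that fell.

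E-boxes varied less with the tilt between stages than with height. An E-box of either kind was in 45.9%, 46.4% and 52.0% of the tertiles by tilt, and in 42.8%, 43.8% and 57.2% of the tertiles by the lower percentile. Between the outer tertiles the difference was 6.03 points by tilt (1.98 to 10.0, 18 of 19 chromosomes). By the lower percentile it was 14.4 points (10.4 to 18.3, 19 of 19 chromosomes). Both were called, though neither CAGCTG nor CAGGTG alone was called by tilt. By height 4 motifs (13.3%) were higher in the top tertile, namely both E-boxes, RUNX (13.1% to 17.0%) and SOX (ACAATG, 2.11% to 3.59%), and 0 (0%) were lower. DN-DP regions farther than 500 bp from any SP peak had an E-box in 3962 of 8103 (48.9%) and those closer in 1042 of 2298 (45.3%, 43.3 to 47.4%).

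**Figure D4:**
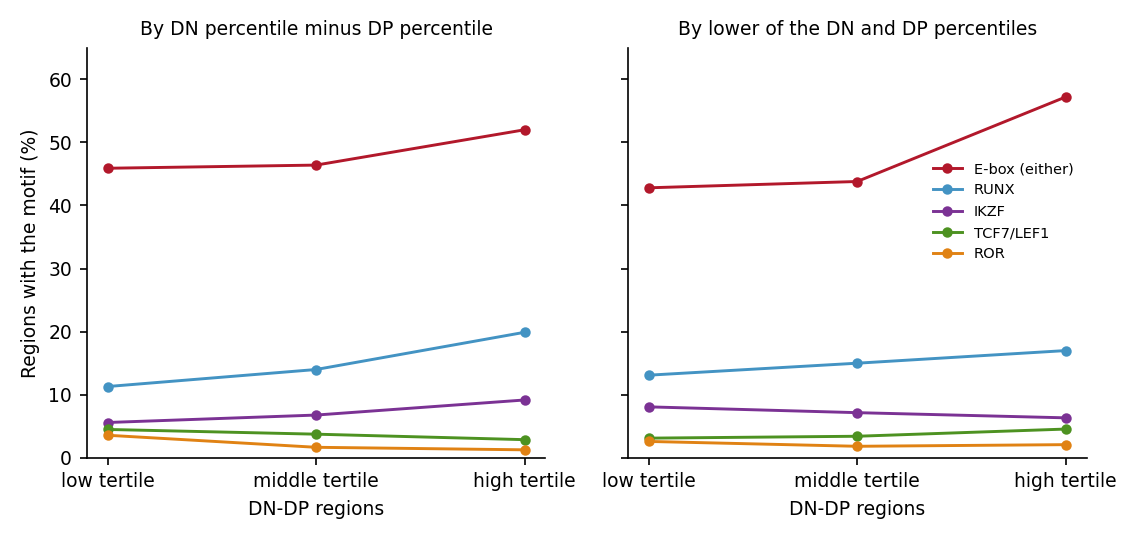
Share of DN-DP regions with each motif within 50 bp of the summit (y axis, %) in tertiles of the DN percentile minus the DP percentile (left) and of the lower of the 2 percentiles (right). RUNX rises from 11.3 to 19.9% and ROR falls from 3.58 to 1.27% towards the DN side, and the E-box share is 57.2% in the highest tertile by height.

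By position, DN-DP regions were nearer to TSSs than the 3 classes. They were also wider, with a median of 232 bp against 154 bp in DN-only, 125 bp in DP-only and 213 bp in SP4-SP8 regions. A wider region overlaps promoters and exons more easily, and the part of width in these overlaps was not tested. A promoter, the 200 bp upstream of an annotated TSS, was overlapped by 970 of them (9.33%, 8.78 to 9.90%), compared with 5.86% of DN-only, 4.32% of DP-only and 3.99% of SP4-SP8 regions. The differences were 3.47 points (2.64 to 4.35), 5.0 (4.02 to 5.98) and 5.34 (4.31 to 6.35), in the same direction on 19 of 19 chromosomes each, with intervals widened over 9 comparisons. All merged regions, most of them called at more stages, had 12.4% at promoters. Another 1688 DN-DP regions (16.2%) overlapped an exon, 1.96 points more than DN-only regions, which was not called since 14 chromosomes went the same way, and 2.65 and 4.40 points more than the other classes. The remaining 7743 (74.4%) were distal, 4196 of them inside a protein-coding gene and 3547 outside.

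The median distance to the nearest TSS was 5002 bp (quartiles 1146 and 13169 bp) for DN-DP regions, close to the 5134 bp of all merged regions. From the summit, which does not depend on width, the median was 5136 bp. It was 6131 bp in DN-only, 6449 bp in DP-only and 6918 bp in SP4-SP8 regions. In the 2-sided Kolmogorov-Smirnov test with Bonferroni adjustment over 3 pairs, the 10401 DN-DP regions differed from DN-only regions (median 6038 bp, n = 40393, statistic 0.0488, p = 4.28e-17). They also differed from DP-only regions (6370 bp, n = 9619, 0.0731, p = 3.37e-23) and from SP4-SP8 regions (6781 bp, n = 7101, 0.0999, p = 1.24e-36). These tests compare lists of regions, and 18 or 19 of the 19 chromosomes had the same direction. 45 DN-DP regions lay over 100 kb from any TSS (0.433%). The promoter members differed from the rest in sequence, with an E-box in 334 of 970 (34.4%, 31.5 to 37.5%) against 801 of 1688 exonic (47.5%, 45.1 to 49.8%) and 3869 of 7743 distal members (interval 48.9 to 51.1%). Promoters were also more frequent among members that leaned to DN, from 7.56% in the DP tertile to 11.3% in the DN tertile (difference 3.72 points, 1.36 to 6.10).

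Of 14367 protein-coding genes with a merged region at a promoter, 718 (5%) had a DN-DP region there. Counted by region, 970 of the 23018 merged regions at a promoter were DN-DP, a lower share than the 5.59% over all positions. Of the 718 genes, 388 had no SP peak at any annotated promoter. The share of genes without an SP peak was not taken over all 14367. A gene whose only promoter region is DN-DP has no SP peak there by the rule that chose the regions. Dntt was among the 388, with 1 promoter region. Its promoter region chr19:41029232-41029477, with the summit 106 bp downstream of the TSS, had a fold enrichment of 5.47 at DN and 2.99 at DP. These are percentiles of 48.6 and 7.02. Its window holds CACCTG, and the nearest SP peak lay 685 bp from its edge. Of the other genes in the lists below, Gata2, Slc4a1 and Rbfox3 were among the 388. The highest of these promoter regions at both stages was that of Shroom3, an actin regulator of epithelia, with 18 at DN and 17.1 at DP. It was followed by Tnr, a matrix glycoprotein of the nervous system (21.9 and 12.4), Gm45213 (15.9 and 9.62), Tmem179 (15.4 and 9.59) and the potassium channel gene Kcna1 (12.4 and 9.36). Ly6d, a surface marker of early lymphoid cells, had 10.2 at DN and 7.68 at DP. These genes were picked after their values were seen, and no gene expression was measured.

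For gene lists, all merged regions that touched a gene or its 50 kb surroundings were counted, and the share of DN-DP regions among them was taken. Of 20780 protein-coding genes, 10647 (51.2%) had at least 1 DN-DP region in that range, so a single region near a gene is common. Among 14912 genes with 10 or more merged regions the median share was 4.55%. All 4 genes of V(D)J recombination and the pre-T cell receptor had such a region, with 11 of 102 merged regions (10.8%, Wilson interval 6.13 to 18.3%), above the 5.59% of all merged regions. With equal numbers of peaks per list it was 8 of 93 (8.60%, 4.42 to 16.1%), and the interval held the 4.64% of all merged regions under that setting. Dntt had 7 of 39 (17.9%), Rag1 2 of 37 (5.41%), Rag2 2 of 36 (5.56%) and Ptcra 2 of 24 (8.33%), so the list rests largely on Dntt. The control list of hepatocyte genes stood as high, with 8 of 80 (10.0%, 5.15 to 18.5%), 5 of them near Tat, a liver enzyme gene, and the list of neuron genes had 14 of 192 (7.29%, 4.39 to 11.9%). A share of this size was thus also seen in a control list, whose interval held 5.59%. That list rests largely on Tat, as the V(D)J list does on Dntt.

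The E protein and Id genes had 26 DN-DP regions of 326 (7.98%, 5.50 to 11.4%), and 8 of 9 genes had 1 or more. Tcf12, which encodes HEB, had 9 of 73, Tcf3, which encodes E2A, 4 of 39 and Id3 3 of 40. Around the Notch receptors and their targets there were 26 of 365 (7.12%), with 8 of 65 at Notch1, the receptor that commits cells to the T lineage, and 5 of 43 at Lfng, which glycosylates it. DP thymocyte genes had 31 of 535 (5.79%), of which Arpp21 had 9 of 63, Themis, needed for selection, 4 of 66 and Cd4 2 of 36. T lineage factors had 57 of 1085 (5.25%), and all 18 genes had at least 1. The ETS family genes Fli1 and Ets1 had 9 of 75 and 8 of 86, and Myb had 6 of 48. DN surface receptors had 14 of 235 (5.96%), with 5 of 52 at the phosphatase gene Ptprj and 4 of 41 at Il2ra, which encodes CD25. CD3 and receptor signalling genes had 24 of 532 (4.51%), and cell cycle genes 28 of 543 (5.16%), including 5 of 59 at Ccnd3, the cyclin of early thymocyte expansion. The shares of all these lists had intervals that held 5.59%.

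The lists of the mature stages held few. Genes of the positive selection response had 6 of 306 merged regions (1.96%, 0.902 to 4.21%), with 2 of 31 at Tnfrsf9 and none at Egr2, Egr3, Nr4a1, Cd69 and Cd28. Genes of mature cells and thymic egress had 12 of 473 (2.54%, 1.46 to 4.38%), with 2 of 36 at Klf2, the factor that drives egress receptors, 2 of 64 at Foxo1 and none at S1pr1. Cytotoxic genes had 3 of 186 (1.61%, 0.550 to 4.63%), 2 at Gzma and 1 at Eomes. The intervals of these 3 lists lay below 5.59%. That of the mature list stayed below the share of all merged regions under all 4 alternatives, that of the positive selection list under all but the 20 kb range (0.887 to 5.70%), and that of the cytotoxic list only at a q-value of at most 0.001. Regions called only at the SP stages count in the denominator of these shares.

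**Figure D5:**
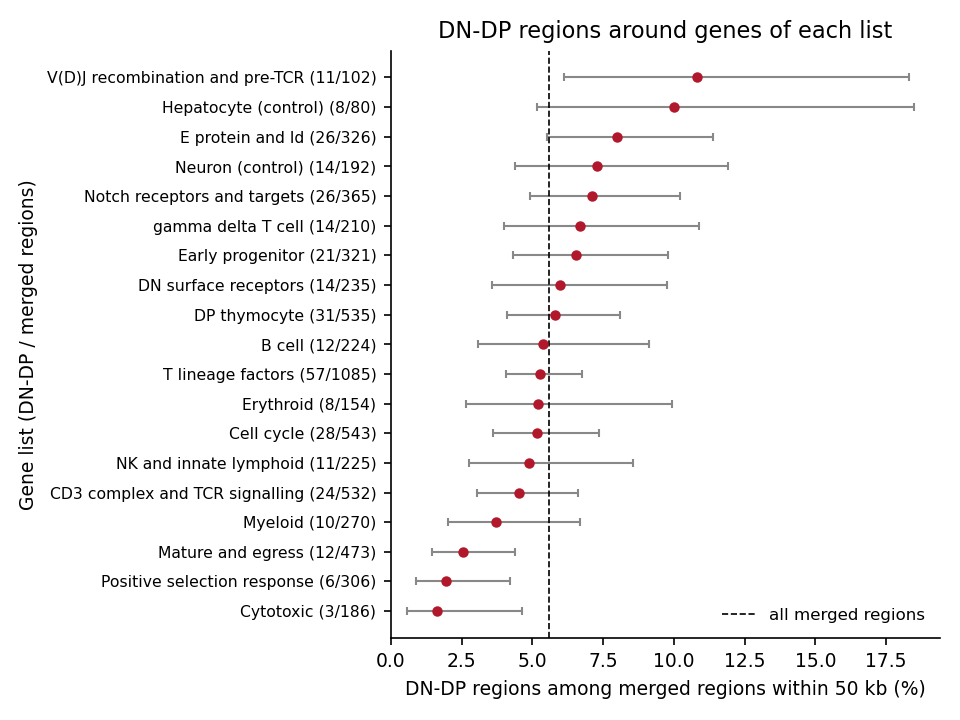
DN-DP regions as a share of the merged regions within 50 kb of the genes of each list (x axis, %), with 95% Wilson intervals and counts beside each list name; the dashed line is the share over all merged regions, 5.59%. Positive selection, mature and cytotoxic genes lie below the line with their intervals, and the V(D)J list lies above it, as does the hepatocyte control apart from the low end of its interval.

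Genes of other cells that a DN sort could hold were near the overall share. The B cell list had 12 of 224 (5.36%), 4 of them at Blk, the myeloid list 10 of 270 (3.70%), the erythroid list 8 of 154 (5.19%), the natural killer and innate lymphoid list 11 of 225 (4.89%) and the gamma delta list 14 of 210 (6.67%), with 5 of 49 at Trdc. Blk is in 2 of the lists. Early progenitor genes had 21 of 321 (6.54%), with 6 of 68 at Erg, 5 of 32 at Spi1 and 5 of 23 at Gata2. The part of other cell types in the DN calls was not tested.

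The 10 protein-coding genes with the highest share, 1 per locus, were not among the listed T cell genes. They were Gm49394 (6 of 13 merged regions), Acaa1b (4 of 10), a peroxisomal thiolase gene, Slc8a3 (5 of 13), a sodium-calcium exchanger gene, 0610012G03Rik (6 of 16), Laptm4b (4 of 11), Tshz3 (4 of 11), Lrrn2 (5 of 15), the olfactory receptor gene Olfr222 (5 of 15), Tat (5 of 15) and Olig2 (4 of 12), a factor of oligodendrocytes. All have 16 merged regions or fewer, so their shares of 33.3 to 46.2% rest on few regions.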

How the data were processed

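ATAC-seq libraries of sorted thymocytes from 4 mice, each used for all 4 stages, were sequenced. Before deposit, the authors mapped the reads to mm10 (BWA), discarded duplicates (Picard) and poorly mapped pairs, thinned deeper libraries to the median depth, combined the 4 mice of a stage and ran MACS2 at a 5% false discovery rate; tool versions are not given in the sources used here. The deposited lists hold, per peak, its position, a score that follows the q-value, the fold enrichment (a ratio to local background) and −log10 q-values, all by the authors, beside −log10 p-values not used here. The read depth of each stage is not part of the lists, so no interval for a height is given. Pooling hides the spread between mice, and whether a weak peak counts as absent depends on the calling threshold.

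Peaks on chromosomes 1 to 19 were merged (Python 3.11.15, pandas 2.3.3, scipy 1.17.1). The percentile of a peak is the share of its list with a lower fold enrichment. Genes and TSSs came from GENCODE M21 with RefSeq (251533 transcripts), and sequences from RefSeq GRCm38 (pysam 0.24.0). 30 motifs were searched. The 19 gene lists included 6 genes that were not matched on these chromosomes. Regions and genes were named by rule: the 8 highest members, up to 3 genes per list with most members plus Rag1, Rag2, Dntt, Ptcra and Cd4, the 5 most compact of the longest runs, and the 10 genes of highest share. A few genes that the rule names are not reported here. The members, lists and motifs were chosen with earlier results of these data known. The functions were tested on simulated data.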

Additional observations from a re-analysis of the deposited data

How the results depend on the processing

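Peaks were called on pooled reads and regions are not replicates, so intervals cover counting error only, and leaving out single mice was not possible. No paired analysis was possible because each stage has 1 pooled list without values per mouse. The number of DN-DP regions was 10076 at a q-value of at most 0.001, 7245 with equal numbers of peaks per list, 9683 with gaps of up to 100 bp merged, 10172 where the DN and DP peaks had to overlap by 50% of the shorter one and 8103 without those within 500 bp of an SP peak. The TSS distance kept its direction and its side of the threshold under all 5 alternatives for each class. Between 14 and 19 of the 19 chromosomes went the same way. The fewest, 14, did so against SP4-SP8 regions with protein-coding transcripts only.

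With a promoter of 1000 bp the promoter, exon and distal shares were 15.4, 14.5 and 70.0%, and with protein-coding transcripts only 6.11, 12.2 and 81.7%. With equal numbers of peaks the promoter share was 10.0%. The exon difference against DN-only was called at 2.0 points (1000 bp), 2.49 (protein-coding) and 1.91 (q of at most 0.001), and against DP-only it was not called with equal numbers of peaks (2.24 points). The cause was not tested.

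In flank windows the motifs called higher and lower were 2 and 0 against DN-only, 0 and 0 against DP-only and 3 and 1 against SP4-SP8 regions, and the RUNX difference against DP-only turned to −0.147 points. These windows lie outside the summit. Under GC strata 2 motifs were lower against DP-only and 6 against SP4-SP8 regions. Against DP-only, 2 were lower with the DP summit, a q-value of at most 0.001 or equal numbers of peaks, and against DN-only 5 were lower with equal numbers. In windows without repeat-masked bases, an alternative chosen after seeing the data, 3 were higher against DP-only. Both E-boxes were called higher against all 3 classes in wider windows and in strata of GC content or height. The same held with the DP summit, at the stricter q-value, with equal numbers of peaks and without repeat-masked bases. It did not hold against all 3 in flank windows, though CAGCTG was still called higher there against DN-only regions (0.958 points). E-box matches per kb over whole regions were higher than in each class too, without an interval. With equal numbers of peaks the shares of the DP thymocyte and T lineage lists were 3.77 and 3.38%, with intervals that held the 4.64% of all merged regions. By nearest TSS the cell cycle, B cell and neuron lists had 7.61, 2.80 and 2.82%, and within 20 kb the B cell list had 3.05%.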
